A study of Mus musculus with 4 samples.

Results

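Transcripts of 6 genes, the vascular endothelial growth factor (VEGF) family ligands *Vegfa*, *Vegfb*, *Vegfc* and *Pgf* and the neuropilin co-receptors *Nrp1* and *Nrp2*, were followed in cultured mouse mammary fibroblasts that carried or lacked the transcription factor *Ets2*. The genes were taken by name, through every probe set whose single symbol in the platform annotation was one of them. This gave 15 probe sets of the 45101 on the array, and 6 of the 18194 genes with a singly named probe set. The cells were cultures labelled as fibroblasts, from 16-week-old female FVB/N mice, grown with fetal bovine serum and used at passage 2, and each genotype was measured on 1 Affymetrix array. The genotypes combine *Ets2* status with the presence of an *ErbB2* oncogene in the mammary epithelium. "Normal" stands here for *Ets2*db/loxP, "normal null" for *FspCre;Ets2*db/loxP, "tumor" for *ErbB2;Ets2*db/loxP and "tumor null" for the *ErbB2* line that carries *Fsp-cre* and *Ets2*db/loxP, and values are given in that order. The *db* allele, a conventional knockout of the DNA-binding domain, is present in all 4, so even the arrays with *Ets2* come from cells with a single intact copy. Cre is driven by the promoter of Fibroblast Specific Protein 1 and the oncogene by the MMTV promoter. Tumors of the *ErbB2* model are not yet palpable at this age. The sources used here do not say whether several mice were pooled for an array.

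VEGF-A is the main growth factor of blood vessel endothelium and acts through the receptors KDR (VEGFR2) and FLT1 (VEGFR1). VEGF-B and placental growth factor, the product of *Pgf*, bind FLT1. VEGF-C and its relative VEGF-D act on FLT4 (VEGFR3), the receptor of lymphatic endothelium, and processed VEGF-C also acts on KDR. The neuropilins serve as co-receptors, for VEGF ligands together with the VEGF receptors and for class 3 semaphorins together with plexins. Fibroblasts are a known source of VEGF ligands, and transcription of *Vegfa* is induced by hypoxia through HIF.

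The starts of *Vegfc* and *Vegfa* are shown because these ligands are the pair compared below, and because the deleted factor belongs to the ETS family, whose members bind sites built on the core GGAA. The windows come from the RefSeq promoter table for build GRCm38.p6 and run from 250 bases before to 50 bases after the start of the gene, 5′ to 3′ on the strand of the gene. Capitals mark every GGAA of either strand, which reads TTCC where it lies on the other strand. The *Vegfc* window is chr8:54077282-54077581 on the plus strand and the *Vegfa* window is chr17:46032328-46032627 on the minus strand.
Vegfc: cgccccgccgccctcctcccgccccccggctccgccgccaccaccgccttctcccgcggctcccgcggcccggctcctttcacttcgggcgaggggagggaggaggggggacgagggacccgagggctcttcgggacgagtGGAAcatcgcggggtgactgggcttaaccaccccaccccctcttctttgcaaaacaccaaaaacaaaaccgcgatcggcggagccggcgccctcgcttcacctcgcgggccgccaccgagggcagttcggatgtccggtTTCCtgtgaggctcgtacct
Vegfa: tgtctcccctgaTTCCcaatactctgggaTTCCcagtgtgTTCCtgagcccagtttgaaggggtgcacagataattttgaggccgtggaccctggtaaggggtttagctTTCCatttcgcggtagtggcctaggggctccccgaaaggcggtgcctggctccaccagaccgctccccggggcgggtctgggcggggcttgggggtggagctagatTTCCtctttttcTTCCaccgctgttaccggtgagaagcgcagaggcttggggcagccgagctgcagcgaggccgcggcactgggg

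The *Vegfc* window held 2 GGAA cores and the *Vegfa* window held 6. At least 1 such core was present in 96.0% of the 32851 promoter windows of the table, with a median of 3 per window. The longer ETS-type string CGGAAG, found in 16.9% of windows on either strand, was absent from all 8 windows listed for the 6 genes. The AP-1 type string TGANTCA, found in 7.81% of windows, was also absent from all 8. The string ACGTG, the core of HIF sites, was found in 19.6% of windows and in 1 of the 8, that of a second, downstream *Vegfa* start. GGGCGG, the GC box, was found in 35.7% of windows and at 2 positions in each of the windows shown. These are matches of letters in short windows and not sites.

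The deposited values are on the log2 scale after RMA, a procedure that corrects background, brings the arrays to nearly one distribution and summarises the probes of a probe set. Over all probe sets the arrays correlated at 0.988 to 0.993 and had medians of 5.51 to 5.54. The brightest *Ets2* probe set read 8.14, 8.35, 8.34 and 8.31, with no clear drop in either null array. Where this probe set lies in the gene is unknown here, so it does not check the genotypes. Values below log2 6 were not shown to be above background, and 14 of the 15 probe sets stayed above log2 6 in all 4 arrays. A single array per genotype leaves the spread between cultures unknown, and therefore nothing was tested and the differences describe these arrays. A rule of size took the place of a test, 2-fold (a log2 difference over 1), with 4-fold (over 2) as the stricter size.

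*Vegfc* was the only one of the 6 genes past 2-fold in any comparison. On its brightest probe set, 1440739_at, it had log2 values of 8.01, 8.83, 8.89 and 6.98. On 1419417_at the values were 7.88, 8.57, 8.70 and 6.63. On 1439766_x_at they were 7.78, 8.40, 8.50 and 6.52. All 3 probe sets placed the arrays in one order, with tumor null lowest by a wide margin and tumor highest, just above normal null. Without *Ets2*, *Vegfc* was lower in tumor fibroblasts by 3.74-fold, 4.19-fold and 3.95-fold on these probe sets. In normal fibroblasts the difference ran the other way, and *Vegfc* was 1.76-fold, 1.62-fold and 1.53-fold higher without *Ets2*, short of 2-fold. The probe set 1419417_at is in the study's own list, which was chosen by size on these same tumor arrays, so its size is no independent evidence. The 3 probe sets read one RNA sample per array and are not replicates, and 2 of them have no transcript accession in the annotation.

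**Figure D1:**
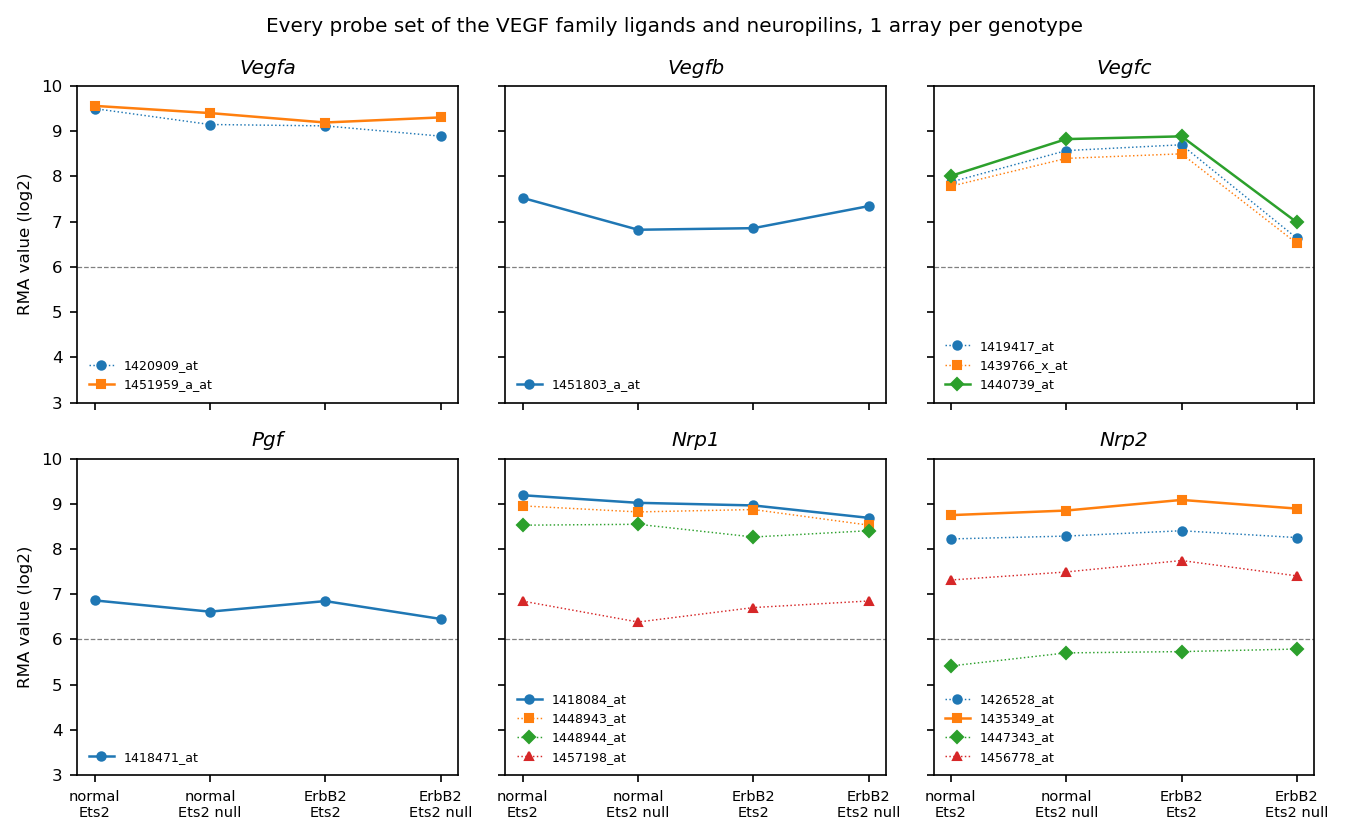
RMA values on the log2 scale (y axis) of every probe set of each gene in the 4 arrays (x axis), with the brightest probe set as a solid line, the others dotted and log2 6 dashed. The 3 *Vegfc* probe sets drop together to between 6.52 and 6.98 in the tumor null array, while the widest of the other probe sets, that of *Vegfb*, spans 0.70 on the log2 scale.

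Among all 45101 probe sets, the *Vegfc* values in tumor fibroblasts were near the lower end. Only 115, 83 and 101 probe sets had a lower difference than 1440739_at, 1419417_at and 1439766_x_at. In normal fibroblasts 353, 598 and 894 probe sets had a higher difference than these. The difference between the differences, tumor minus normal, was -2.72 on the log2 scale for the brightest *Vegfc* probe set, and 73 probe sets lay below it. Among the 15 probe sets, 3 were past 2-fold lower in tumor null than in tumor fibroblasts and 0 higher, while 1.38% of all probe sets were lower and 0.275% higher by that size. These 3 all belong to *Vegfc*, so the count stands for 1 of 6 genes. Past 4-fold there was 1 of the 15, against 0.22% of all probe sets lower. The median difference of the 15 was -0.23 in tumor and 0.02 in normal fibroblasts, beside 0.04 and 0.01 over all probe sets. In normal fibroblasts 0 of the 15 were past 2-fold, where 0.443% of all probe sets were higher and 0.253% lower. At 1.5-fold the 3 *Vegfc* probe sets were higher in normal null and that of *Vegfb* lower, beside 2.31% and 1.74% of all probe sets.

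*Vegfa*, the main vascular ligand, did not share this pattern. Its brightest probe set, 1451959_a_at, had log2 values of 9.56, 9.40, 9.19 and 9.31. On 1420909_at the values were 9.50, 9.15, 9.12 and 8.89. Normal fibroblasts were highest on both probe sets, but the probe sets differed in which array was lowest. The *Ets2* differences of *Vegfa* were -0.16 and -0.35 in the normal pair of arrays and 0.11 and -0.23 in the tumor pair. Across the array, *Ets2* differences had a robust SD of 0.225 in the normal and 0.270 in the tumor pair, so only the larger of the normal differences was outside that width.

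Levels of different probe sets cannot be set against each other, so *Vegfc* was compared with *Vegfa* through their differences. On the brightest probe sets the *Ets2* difference of *Vegfc* minus that of *Vegfa* was 0.97 in normal and -2.02 in tumor fibroblasts. Over the 6 pairs of a *Vegfc* and a *Vegfa* probe set it ran from 0.78 to 1.17 in normal and from -2.18 to -1.68 in tumor fibroblasts. Every pair thus placed *Vegfc* above *Vegfa* in the normal and below it in the tumor comparison.

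*Vegfb*, a ligand of FLT1, moved against *Vegfc*, by less than 2-fold. Its single probe set, 1451803_a_at, read 7.52, 6.82, 6.86 and 7.34. Normal and tumor null were the high pair of arrays, the opposite of *Vegfc*. The *Ets2* differences were -0.70 in normal fibroblasts, where 423 probe sets had a lower difference, and 0.49 in tumor fibroblasts, where 2266 had a higher one. *Pgf*, the other ligand of FLT1, had values of 6.86, 6.61, 6.85 and 6.45 on its single probe set, 1418471_at. Both null arrays were the lower of their pair, by -0.25 in normal and -0.39 in tumor fibroblasts, sizes that 28.9% and 18.9% of all probe sets exceeded.

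*Nrp1*, a co-receptor for VEGF-A and class 3 semaphorins, varied little. On its brightest probe set, 1418084_at, the values were 9.19, 9.02, 8.96 and 8.69. The next brightest, 1448943_at, read 8.95, 8.82, 8.87 and 8.53, and on both the tumor null array was lowest. The other probe sets did not follow them, 1448944_at reading 8.53, 8.55, 8.26 and 8.40 and 1457198_at 6.85, 6.38, 6.70 and 6.85. Over the 4 probe sets the *Ets2* difference ran from -0.46 to 0.02 in normal and from -0.34 to 0.15 in tumor fibroblasts, with 2 above and 2 below 0 in the latter.

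*Nrp2*, the neuropilin that binds VEGF-C as well as semaphorins, also had small differences. On 1435349_at, its brightest probe set, the values were 8.75, 8.85, 9.08 and 8.89. On 1456778_at they were 7.31, 7.49, 7.74 and 7.40, and on 1426528_at 8.22, 8.28, 8.40 and 8.25. These 3 probe sets were highest in tumor and lowest in normal fibroblasts. The remaining one, 1447343_at, lay at 5.41 to 5.79, below log2 6. The *Ets2* difference was 0.06 to 0.29 in normal fibroblasts, above 0 on all 4 probe sets, and -0.34 to 0.06 in tumor fibroblasts, below 0 on 3 of 4. The difference between them was below 0 on all 4, at -0.52 to -0.21, the sign also seen for *Vegfc* at a much smaller size.

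**Figure D2:**
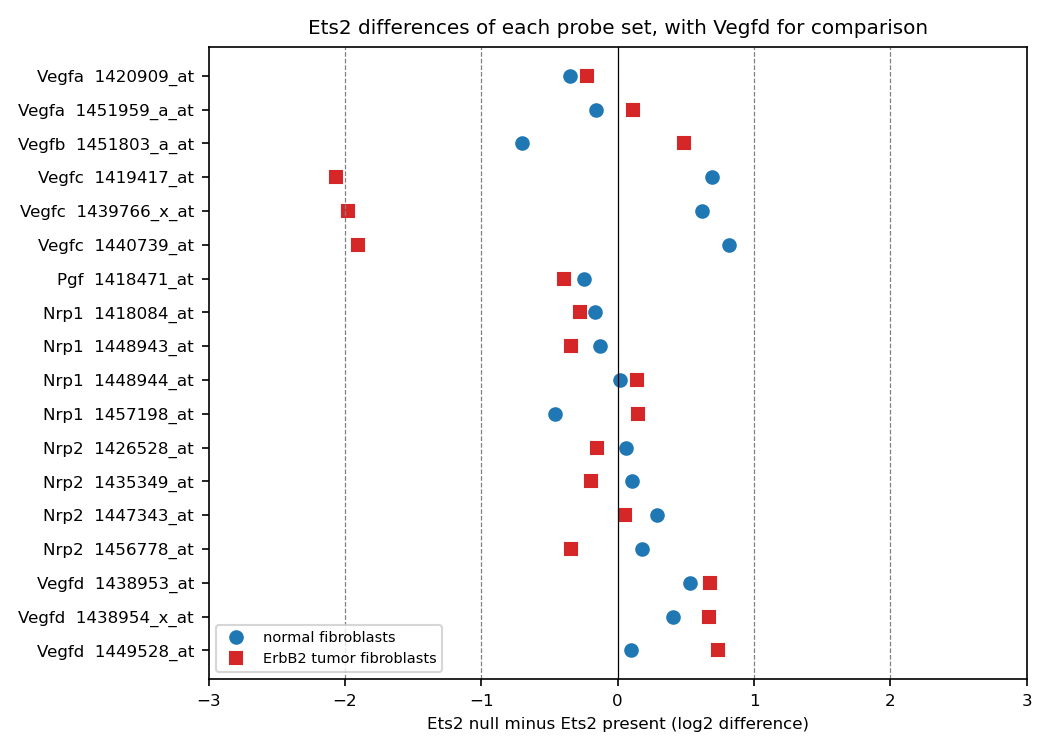
Log2 difference, *Ets2* null minus *Ets2* present (x axis), of each probe set (y axis) in normal (blue circles) and *ErbB2* tumor fibroblasts (red squares), with dashed lines at 2-fold and 4-fold. The *Vegfc* points lie at -2.07 to -1.90 in tumor and 0.62 to 0.81 in normal fibroblasts, and all other points, those of *Vegfd* included, lie inside the 2-fold lines.

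The difference between arrays with and without the oncogene was read from the same arrays, so these values are not independent of those above. With 1 array per genotype, a difference due to the oncogene cannot be told apart from one between cultures. With *Ets2*, *Vegfc* was higher in tumor than in normal fibroblasts by 1.83-fold, 1.77-fold and 1.64-fold on 1440739_at, 1419417_at and 1439766_x_at. Of the 15 probe sets 0 were past 2-fold there, beside 0.57% of all probe sets higher and 0.118% lower. At 1.5-fold the 3 of *Vegfc* were higher and that of *Vegfb* lower, beside 2.43% and 1.05%. Without *Ets2*, *Vegfc* was lower in tumor than in normal fibroblasts by 3.58-fold, 3.84-fold and 3.68-fold. It supplied the 3 of 15 probe sets past 2-fold lower, a size reached by 1.2% of all probe sets, with 0.401% higher. Past 4-fold there were 0 of 15, beside 0.149% lower. *Vegfa* was lower in tumor fibroblasts in both, by -0.37 and -0.38 with *Ets2* and by -0.10 and -0.26 without. *Vegfb* differed by -0.67 with *Ets2* and by 0.52 without.

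*Vegfd*, whose product is a ligand of FLT4 as VEGF-C is, ran opposite to *Vegfc* in tumor fibroblasts. Its brightest probe set, 1449528_at, read 8.73, 8.83, 8.06 and 8.80, and 1438953_at read 8.26, 8.79, 7.90 and 8.58. Tumor fibroblasts were lowest on all 3 of its probe sets, where those of *Vegfc* were highest. *Vegfd* was higher without *Ets2* in tumor fibroblasts by 0.67 to 0.73 on the log2 scale, and in normal fibroblasts by 0.10 to 0.53, all short of 2-fold.

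The VEGF receptors, which endothelial cells express, were not past 2-fold on their brightest probe sets. *Flt1* read 7.59, 7.09, 7.76 and 6.87 there. All 4 of its probe sets were lower in both null arrays, by -0.68 to -0.27 in normal and -1.44 to -0.90 in tumor fibroblasts, and the 2 past 2-fold in tumor fibroblasts, at -1.44 and -1.31, were below log2 6 without *Ets2*. *Kdr* read 7.46, 7.06, 7.46 and 6.96. *Flt4* stayed at 5.61 to 6.01, near or below log2 6. Of 14 endothelial and lymphatic endothelial markers, 4 were past 2-fold lower without *Ets2* in normal and 2 in tumor fibroblasts, with medians of -0.69 and -0.42, beside -0.00 and 0.04 over all 18194 genes. Of all genes 0.357% and 1.74% were lower by that size. Among the markers counted, *Pecam1*, *Cldn5* and *Robo4* were below log2 6 in normal null. In tumor fibroblasts the 2 were *Vwf*, below log2 6 in all 4 arrays, and *Emcn*, at 5.99 in tumor null. The summed linear level of the 14 markers was 1261, 734, 987 and 687, lower in both null arrays, as were *Flt1* and *Kdr*. The part of endothelial cells in the receptor values was not tested. The lymphatic markers *Lyve1* and *Prox1* lay at 3.13 to 3.91. In such bulk samples fewer cells of a type and less RNA per cell cannot be told apart.

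Partners of the neuropilins showed no difference past 2-fold. Of 12 plexins and class 3 semaphorins and *Gipc1*, an adaptor that binds the neuropilin-1 tail, 0 passed in either *Ets2* comparison. Among all genes 1.74% passed lower and 0.341% higher in tumor, and 0.357% lower and 0.621% higher in normal fibroblasts. *Sema3a*, a ligand of neuropilin-1, read 5.67, 6.39, 5.05 and 6.02, higher in both null arrays but below log2 6 in 2 of 4. *Plxna1*, a plexin that signals with neuropilins, read 8.94, 8.93, 9.15 and 8.21. *Sema3b*, another secreted semaphorin, was at 6.57 and 6.09 in the normal pair.

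Among 19 genes for processing and matrix release of VEGF ligands, 4 were past 2-fold lower without *Ets2* in tumor fibroblasts and 0 higher, with a median of -0.28. By that size 1.74% of all genes were lower and 0.341% higher. *Mmp3*, stromelysin, had the largest difference of the 4, at 12.26 and 8.29 in the tumor pair. *Hpse*, heparanase, which cleaves heparan sulfate, was at 7.75 and 6.59. *Ctsd*, a lysosomal protease, was at 13.13 and 12.12, and *Mmp9*, a gelatinase, at 6.15 and 5.11, the lower value below log2 6. *Ccbe1*, the secreted cofactor of VEGF-C processing, was at 6.75 and 6.05 on its brightest probe set, short of 2-fold, and *Adamts3*, the protease it works with, stayed at 4.01 to 4.54. In normal fibroblasts 2 of the 19 were past 2-fold lower, beside 0.357% of all genes. They were *Mmp3* at 9.87 and 8.02 and the plasminogen activator *Plat* at 9.18 and 8.17.

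HIF regulators and hypoxia genes were examined because of their known link to *Vegfa*. Of the 8 HIF regulators 0 were past 2-fold in either comparison, with medians of -0.17 in normal and 0.01 in tumor fibroblasts, where the mean was -0.18. By that size 0.357% of all genes were lower and 0.621% higher in normal fibroblasts, and 1.74% lower and 0.341% higher in tumor fibroblasts. *Hif1a*, the oxygen-regulated subunit, read 11.28, 10.77, 11.15 and 11.30. *Epas1*, which encodes HIF-2α, read 8.24, 8.80, 8.77 and 7.89 on its brightest probe set and was lowest in tumor null, as *Vegfc* was, but its other probe set was below log2 6 and differed by -0.09 and -0.30. *Egln3*, a prolyl hydroxylase acting on HIF, was at 6.52 and 5.91 in the tumor pair.

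Of 17 measured hypoxia and glycolysis genes, 16 were below 0 without *Ets2* in normal fibroblasts, with a median of -0.42, and 12 in tumor fibroblasts, with a median of -0.12, where 50.5% and 44.2% of all genes were below 0. The single one past 2-fold was *Ndrg1*, a stress-induced gene, lower in the normal pair, beside 0.357% of all genes. It read 8.44, 6.85, 7.61 and 8.50. On its 5 probe sets it was lower by -2.08 to -0.89 in normal and higher by 0.79 to 1.12 in tumor fibroblasts. *Bnip3*, a mitophagy gene, was at 11.01 and 10.06 in the normal pair, and *Adm*, which encodes adrenomedullin, at 10.36 and 9.64 in the tumor pair.

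Of 23 other angiogenic ligands, *Vegfd* among them, 5 were past 2-fold lower and 2 higher without *Ets2* in tumor fibroblasts, with a median of -0.16. The all-gene shares past 2-fold in this tumor comparison were 1.74% on the lower side and 0.341% on the higher side. *Cxcl12*, a chemokine, read 10.91, 9.15, 10.49 and 7.69. *Tgfb3*, a growth factor of the TGF-beta family, read 10.90, 11.34, 11.96 and 9.84. The other ligands past 2-fold were picked out after their values were seen. *Tgfb2*, of the same family, read 8.57, 9.34, 9.32 and 7.87, and *Ereg*, the EGF-family ligand epiregulin, read 7.94, 9.20, 8.13 and 6.19. *Pdgfb*, which recruits pericytes, read 6.36, 5.88, 6.63 and 5.57. *Tgfb3*, *Tgfb2* and *Ereg* were higher in normal null than in normal fibroblasts, and *Cxcl12* and *Pdgfb* were not. *Hgf*, at 7.08 and 8.35, and *Igf1*, at 9.13 and 10.38, both growth factors of stromal origin, were the higher ones. In normal fibroblasts *Ereg* was past 2-fold higher, and *Cxcl12*, *Apln* at 8.55 and 6.97 and *Tgfb1* at 8.98 and 7.88 were lower. There 0.621% of all genes were higher and 0.357% lower by that size. Of 14 measured angiogenesis inhibitors, 2 were past 2-fold lower without *Ets2* in tumor fibroblasts, the platelet factor *Pf4* at 8.94 and 6.27 and *Col18a1*, the source of endostatin, at 9.61 and 8.50, and 0 in normal fibroblasts. By that size 1.74% of all genes were lower in tumor and 0.357% in normal fibroblasts. The median of the inhibitors in tumor fibroblasts was -0.18, beside 0.04 over all genes.

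**Figure D3:**
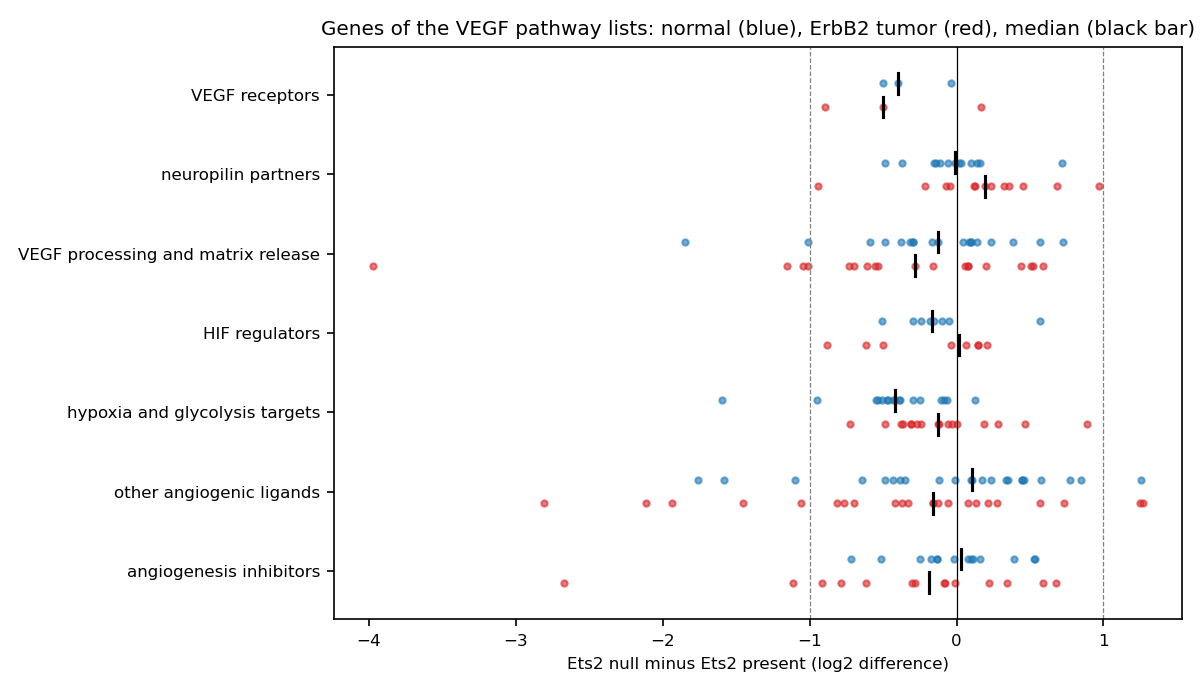
Log2 difference, *Ets2* null minus *Ets2* present (x axis), of each gene (points) of 7 lists (y axis), in normal (blue) and *ErbB2* tumor fibroblasts (red), with list medians as black bars and 2-fold as dashed lines. The hypoxia list lies mostly left of 0 in normal fibroblasts, with a median of -0.42, and the red point farthest left is *Mmp3* at -3.97.

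The genes whose 4-array pattern was nearest to that of *Vegfc* were found by the root mean square difference of values centred on their mean, over 10936 genes reaching log2 6. The nearest was *Siglecg*, a sialic acid-binding receptor of B cells, with a difference of 0.05 and values of 9.39, 10.16, 10.21 and 8.42. *Fam107b* followed at 0.10, and *Lims2*, a focal adhesion protein, at 0.12 with 9.54, 10.22, 10.36 and 8.70. *Phlda1* read 9.08, 9.59, 9.67 and 7.77 and *Noct* read 8.65, 9.32, 9.37 and 7.80, both at 0.13. *Vegfc* was one of 298 genes reaching log2 6 and past 2-fold lower without *Ets2* in tumor fibroblasts, of which 183 had a higher value without *Ets2* in normal fibroblasts. This is 61.4% of them, beside 45.7% of the 10936 genes. The 3 nearest measured protein-coding genes on each side of *Vegfc* on chromosome 8 had smaller tumor differences, 0.03 for *Aga*, -0.10 for *Neil3* and -0.54 for *Spcs3*, while *Tenm3*, *Asb5* and *Spata4* were below log2 6 in all 4 arrays.

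Markers of other cells moved across the same arrays. For the counts below, 0.621% of all genes were past 2-fold higher and 0.357% lower in normal, and 0.341% higher and 1.74% lower in tumor fibroblasts. Of 12 epithelial markers, 8 were past 2-fold higher without *Ets2* in normal fibroblasts and 9 lower in tumor fibroblasts, and their summed linear level was 1267, 3409, 2799 and 897. *Cdh1*, counted in both, and *Cldn7*, counted in tumor fibroblasts, were below log2 6 in all 4 arrays. *Krt18*, an epithelial keratin, read 5.21, 8.78, 8.52 and 5.01. The arrays with the higher epithelial sum were the arrays with higher *Vegfc*, and the part of epithelial cells in the *Vegfc* values was not tested. Of 8 skeletal muscle markers, 1 was past 2-fold higher and 2 lower in normal and 5 lower in tumor fibroblasts, with sums of 2022, 4190, 2704 and 935, set largely by *Acta1*, while 7 of the 8 were below 0 in normal fibroblasts, with a median of -0.52. Of 16 macrophage and myeloid markers, 8 were past 2-fold lower without *Ets2* in tumor and 1 in normal fibroblasts, with sums of 9648, 7876, 17578 and 7571. Of 9 pericyte and smooth muscle markers, 1 was higher and 1 lower in normal and 1 lower in tumor fibroblasts, with sums of 41058, 44128, 41090 and 33183. Of 7 measured adipocyte markers, 1 was higher in normal and 1 lower in tumor fibroblasts, with sums of 5493, 8238, 8547 and 7147. The 14 fibroblast markers all reached log2 6 and summed to 113264, 93307, 116840 and 116181, with 2 past 2-fold lower in normal and 1 in tumor fibroblasts. Their medians were -0.54 in normal and 0.04 in tumor fibroblasts, with 11 and 6 of the 14 below 0. The part of these cells in the *Vegfc* and *Vegfb* values was likewise not tested.

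**Figure D4:**
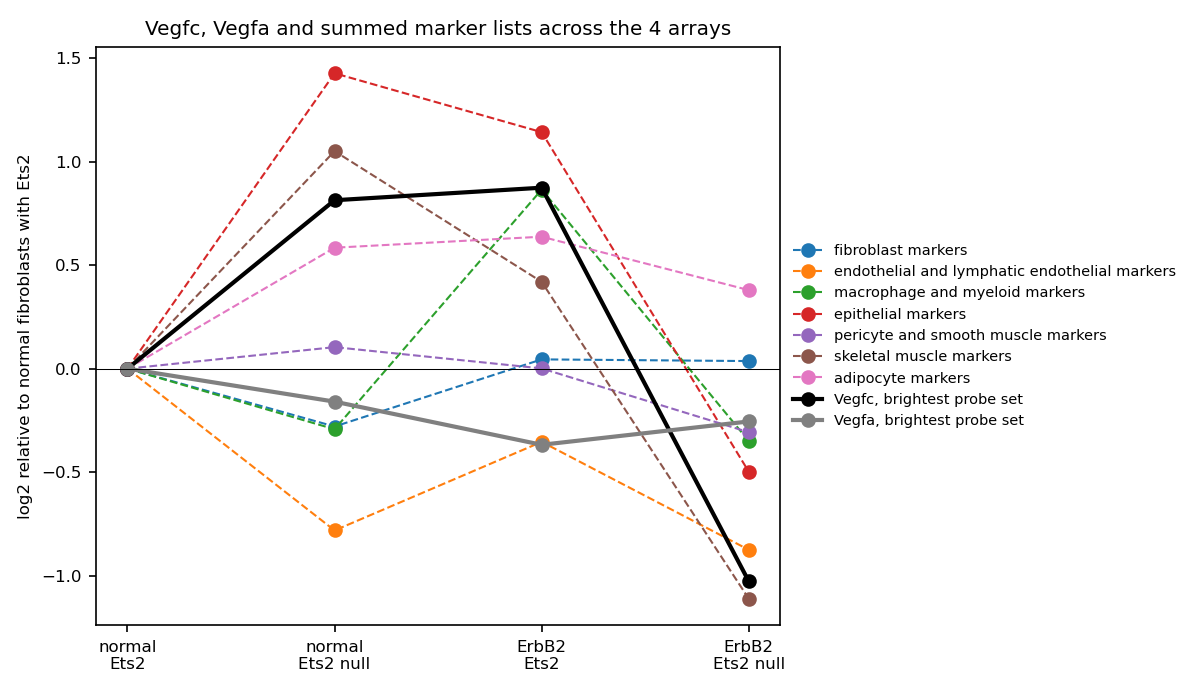
Log2 level relative to normal fibroblasts with *Ets2* (y axis) in the 4 arrays (x axis), for the brightest *Vegfc* (black) and *Vegfa* (grey) probe sets and for the summed linear values of each marker list (dashed). The epithelial sum lies above 0 in normal null and tumor, as *Vegfc* does at 0.81 and 0.87, and below 0 in tumor null, and the skeletal muscle sum, which follows *Acta1*, does so although 7 of its 8 markers were lower in normal null than in normal.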

How the data were processed

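The authors deposited log2 values per probe set, made with RMA (named in the submitters' processing notes) from Affymetrix mouse arrays, 1 array for each of 4 genotypes. The sources used here give no version of it. Because RMA equalises the arrays, a shift of most genes together would go unseen. In the platform annotation 34958 probe sets had 1 symbol, 932 had several and 9211 had none, and only the first kind was named. The gene lists held *Vegfd* under its older name *Figf*, and *Eno1*, *Vash1* and *Plin1* of the gene lists were not analysed here. Array differences were taken with numpy 2.4.6 and pandas 2.3.3 under Python 3.11.15, by scripts tested on simulated data, and plotted with matplotlib 3.10.9. The number of arrays limits the precision. A gene was represented by its brightest probe set, by mean over the arrays.

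The 6 genes and the 15 gene lists were chosen with earlier results of these data known. Named genes were the 6 genes, the VEGF receptors, *Vegfd*, processing genes past 2-fold, up to 2 members of each other list with the largest difference in each *Ets2* comparison and a value reaching log2 6, and the 5 genes nearest to *Vegfc*. *Tgfb1*, *Tgfb2*, *Ereg*, *Pdgfb*, *Hgf* and *Igf1* were named after their values were seen, *Ccbe1*, *Adamts3*, *Lyve1* and *Prox1* for their roles, and neighbours by position. *Cdh1*, *Cldn7*, *Vwf*, *Cldn5* and *Robo4* were named because counted values of theirs lay below log2 6. Marker lists are given by counts and sums. Sequences came from RefSeq tables of GRCm38.p6, which held all 6 genes. Alternatives were median centring, quantile normalization, loess (statsmodels 0.14.6, span 0.4), a floor at log2 6, a minimum level, other choices of probe set and other sizes of rule.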

Additional observations from a re-analysis of the deposited data

Results flagged for a closer look

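For 4 of the 6 genes the *Ets2* difference on the brightest probe set had opposite signs in normal and tumor fibroblasts, as had 47.1% of all 18194 genes. The difference between the differences, tumor minus normal, was -2.72 for *Vegfc*, 1.19 for *Vegfb*, -0.29 for *Nrp2* and 0.27 for *Vegfa*. With 1 array per genotype none of these was tested. The robust SD of this quantity over all probe sets was 0.330, so the values of *Nrp2* and *Vegfa* are inside that width. On its other probe set *Vegfa* was below 0 in both, at -0.35 and -0.23.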

How the results depend on the processing

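*Vegfc* kept its sign under the 6 alternatives run for normalization, floor and choice of probe set, with *Ets2* differences of 0.71 to 0.84 in normal and -1.98 to -1.82 in tumor fibroblasts. The floor and the removal of probe set endings could not alter *Vegfc*. Its brightest probe set stayed above log2 6 and has none of the endings named below. A value was taken to have moved when it shifted by more than the robust SD of all differences, since replicates are lacking. Without probe sets ending in _s_at, _x_at or _a_at, *Vegfc* minus *Vegfa* in tumor fibroblasts was -1.68, since this leaves *Vegfa* with its other probe set, and *Vegfb* had no value. With a 4-fold rule, 1 of the 15 probe sets was lower without *Ets2* in tumor fibroblasts, and 0 were lower in tumor null than in normal null. With a 1.5-fold rule, 3 were higher and 1 lower without *Ets2* in normal fibroblasts, and 3 were higher and 1 lower in tumor than in normal fibroblasts with *Ets2*. Of the values for *Vegfa*, *Vegfb*, *Pgf*, *Nrp1*, *Nrp2* and the gene lists, 12 moved and 223 did not. Over all these values, moved or not, the sign changed in 10, 3 for the 6 genes and 7 for list medians, all within 2-fold. *Vegfa* in tumor fibroblasts was -0.06 as the mean of its probe sets and -0.23 without the endings. The *Nrp1* difference between differences was 0.10 in place of -0.11 as a mean. Of these *Vegfa* and *Nrp1* values, only the -0.23 counted as moved. No paired analysis was possible because each group has 1 array, and no array could be left out for the same reason.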
